A study of Rattus norvegicus with 18 samples.

Results

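The transcripts described here encode 7 neuropeptide precursors, Sst, Npy, Cck, Vip, Penk, Pdyn and Tac1, and Pcsk1n, which encodes proSAAS, an inhibitor of prohormone convertase 1. They were measured in rat hippocampus. All array rows (probe sets) whose platform annotation gives 1 of these symbols were taken, which found 8 probe sets for 8 genes, 1 per gene, among 10412 genes with a single-symbol row. All 8 genes also matched a RefSeq gene table by gene ID. The study used 18 Affymetrix oligonucleotide arrays, 1 per sample of total RNA, and asks how prenatal alcohol bears on learning. Its 6 groups were alcohol diet trained (4 arrays), alcohol diet naive (4), isocaloric diet trained (4), isocaloric diet naive (2), control diet trained (2) and control diet naive (2). An isocaloric diet matches another in calories. Training was a procedure the labels abbreviate as CFC without spelling it out. Strain, sex, age, alcohol dose and the time from training to tissue collection are not given in the sources used here. Nothing in the labels shows that the replicates were different animals, or from which litters they came. The p-values therefore measure only the spread among these arrays, part of which may be technical, and they take no account of litter.

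Neuropeptides are made as long precursors that are cut by convertases inside dense-core vesicles and released during strong firing to act on G-protein-coupled receptors. In the hippocampus, somatostatin, neuropeptide Y, cholecystokinin and vasoactive intestinal peptide mark different classes of inhibitory interneurons. Dynorphin and enkephalin, both opioid peptides, occur in granule cells of the dentate gyrus, and dynorphin is stored in their mossy fibre terminals.

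Several precursor genes are textbook targets of the cAMP response element binding protein, which reads an activity-driven signal through the letters TGACGTCA or the shorter TGACG. The RefSeq promoter table (rat build GRCr8, 250 bases before to 50 bases from the start it lists) held 6 of the 8 genes, and Cck and Penk were not matched. TGACG or its reverse complement CGTCA lay in the windows of Vip, Tac1 and Sst and in 21.2% of all 33469 promoters. The full palindrome TGACGTCA, which contains both shorter forms, lay in Sst and in 1.83% of promoters. TATAAA, searched on the gene's strand only, lay in Pdyn and Vip and in 8.80% of promoters. The stretches below are shown because training was compared in these genes and because Pdyn differed between diets. Each is 30 bases long on the gene's strand, 5′ to 3′, with the motif in capitals. They run at chr11:90461537-90461566 (plus strand) for Sst, chr1:44470370-44470399 (plus) for Vip, chr4:36645364-36645393 (plus) for Tac1 and chr3:137366499-137366528 (minus) for Pdyn.
Sst: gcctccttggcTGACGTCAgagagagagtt
Vip: gggatcaccactgTGACGtctttcgaggag
Tac1: ttccctaaaattgCGTCAtttcgaacccaa
Pdyn: gagactctcttcTATAAAaggggagggagt
The Sst palindrome began 2 bases past the listed start. The motifs of Vip, Tac1 and Pdyn began 97, 206 and 13 bases before it. For Vip and Tac1 the listed start lies inside the gene's outer RefSeq bounds, so these stretches belong to a downstream start. A match describes letters in a window and does not show a site in use.

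The authors deposited 1 linear intensity per probe set and array, called signal here, and differences were tested on the log2(signal + 6.06) scale, which understates changes of dim probe sets. Summed over probe sets, the arrays held 2.92e+06 to 3.13e+06 signal units. Correlations within groups were 0.952 to 0.985, and 0 pairs of arrays were identical. Choroid plexus RNA, read as Ttr over 4 times its median, stood out on 4 arrays: alcohol trained replicate 4, alcohol naive replicate 2, isocaloric trained replicate 3 and control trained replicate 1. A pair of control arrays, naive replicate 1 and trained replicate 2, carry MAS5 (an Affymetrix summary algorithm) in the submitters' processing notes, and this possible technical batch held control arrays only. Hippocampal markers were present: Prox1, of dentate granule cells, ranged from 133 to 267 in signal and Wfs1, of pyramidal cells in area CA1, from 761 to 1186. Of 9 granule cell markers on the array, 6 passed the filter on low values. C1ql3 (2.16 to 6.51), Dsp (17.9 to 63.3) and Tdo2 (2.15 to 19.1) did not. Of 10 pyramidal cell markers, 9 passed, and Spink8 (1.43 to 4.61) did not. In bulk tissue, fewer cells of a type and less RNA per cell cannot be told apart.

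Of the 8 genes, 7 passed the filter (mean at or above the 40th percentile of probe sets), and Tac1 did not. Diets were compared by limma over all 18 arrays, with the trained and naive differences averaged, and a change was called at a Benjamini-Hochberg adjusted p under 0.05 over 9520 probe sets. Pcsk1n was higher in the alcohol diet than in either other diet. Pdyn was lower in the control diet than in either other diet. For alcohol minus isocaloric 1 of the 7 genes was called, upward, where 3.06% of all probe sets were called and 1.47% were called upward. For alcohol minus control 2 of 7 were called, both upward, where 19.9% of all probe sets were called and 11.3% upward. For isocaloric minus control 1 of 7 was called, upward, where 7.05% were called and 4.24% upward. The median difference of the 7 genes was 0.06, -0.03 and 0.02 on the log2 scale in these comparisons, beside -0.02, -0.00 and 0.02 for all probe sets. With each array centred on its median instead, 88.4%, 46.4% and 19.1% of all calls were upward in the 3 comparisons, beside 48.1%, 56.7% and 60.2% as reported. An unadjusted p under 0.05 was found for 21.7%, 33.6% and 25.1% of probe sets in the same order, the background for the gene lists described later. The comparisons share arrays, so their calls are not independent.

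**Figure D1:**
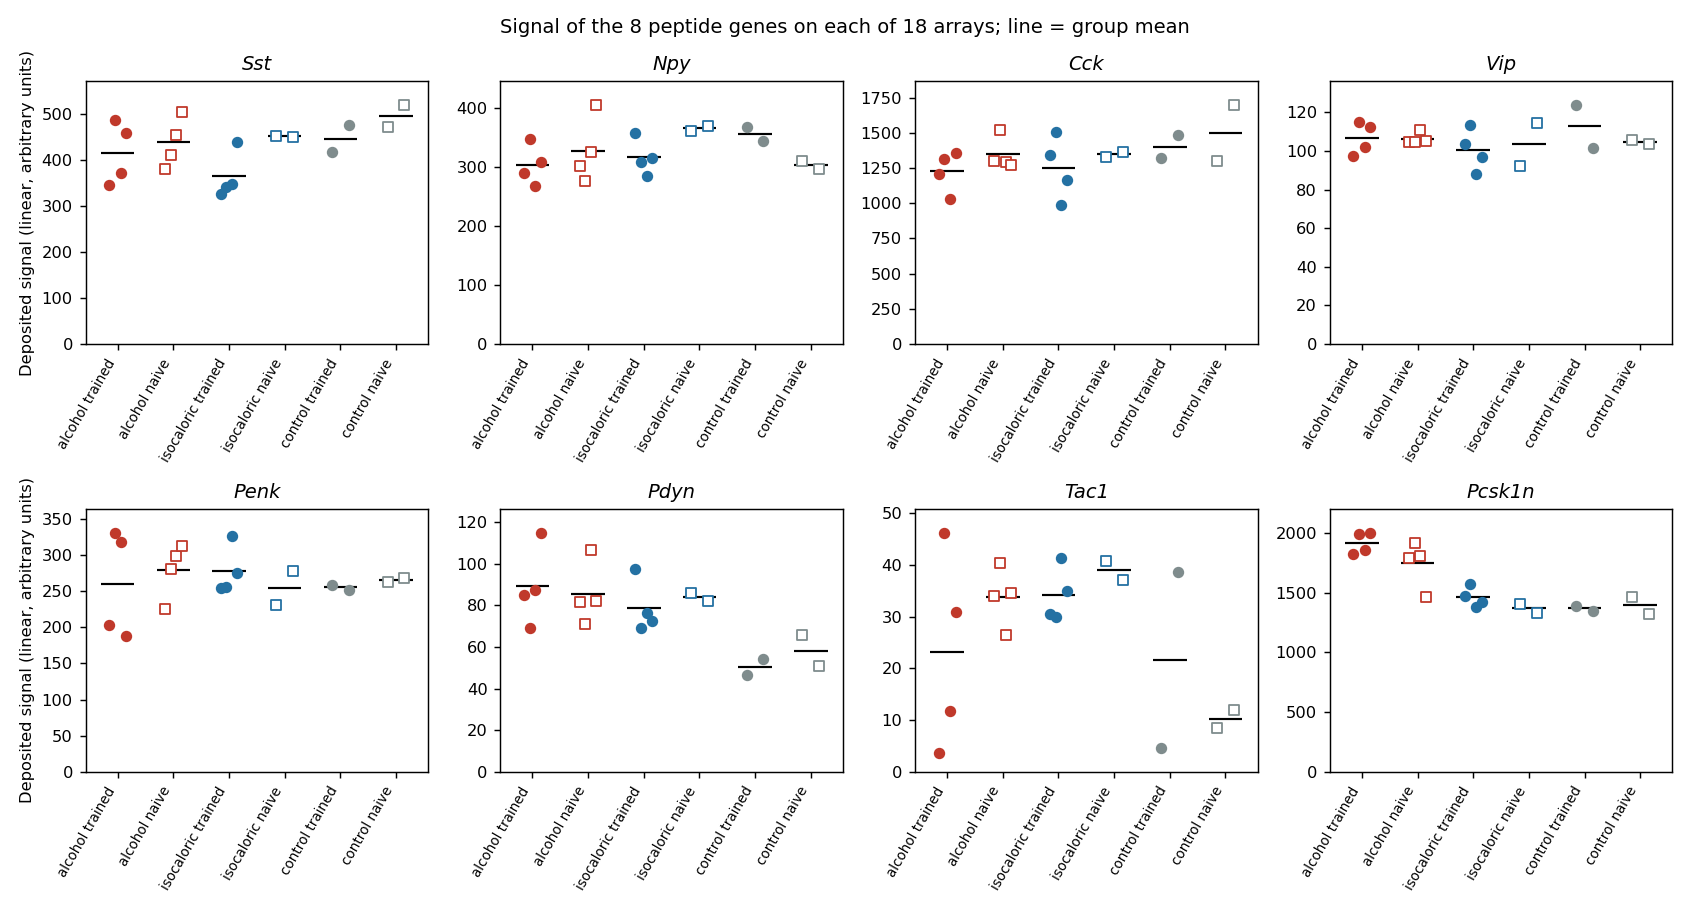
Deposited signal (linear, arbitrary units, axis from 0) of the 8 genes on each of 18 arrays by diet and training group. Filled circles are trained arrays, open squares are naive arrays, colours mark the diet and lines are group means. Pcsk1n is highest in the alcohol groups, and the 4 control arrays of Pdyn lie below the other 14.

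Pcsk1n, whose product restrains the convertase that cuts many precursors, had signals of 1828, 1995, 1856 and 2004 on the alcohol trained arrays and 1792, 1918, 1811 and 1463 on the alcohol naive arrays. The isocaloric trained arrays read 1470, 1575, 1384 and 1423, and the isocaloric naive arrays 1408 and 1334. Control trained arrays read 1391 and 1350, and control naive arrays 1464 and 1326. Of the 8 alcohol arrays, 7 lay above all 10 arrays of the other diets, and the eighth, alcohol naive replicate 4, lay among them. Group means ran in the order alcohol trained (1921 ± 91.9, SD, n = 4), alcohol naive (1746 ± 197, n = 4), isocaloric trained (1463 ± 82.7, n = 4), control naive (1395 ± 98.0, n = 2), isocaloric naive (1371 ± 52.6, n = 2) and control trained (1370 ± 29.5, n = 2). Neighbours in that order differed by less than the larger of their SDs, except alcohol naive and isocaloric trained.

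On the log2 scale Pcsk1n was higher by 0.37 with alcohol than with the isocaloric diet (SE 0.06, 1.29-fold, limma adjusted p = 0.00577), with 8 of 8 alcohol arrays above the isocaloric mean of their training state. It ranked 21 of 9520 probe sets by p. Against control the difference was 0.40 (SE 0.07, 1.32-fold, adjusted p = 0.00099), again with 8 of 8 arrays higher, at rank 124. Isocaloric minus control was 0.03, with a 95% interval of -0.12 to 0.19. Trained and naive arrays gave like differences: 0.39 and 0.34 against isocaloric, and 0.48 and 0.32 against control. The rise against control was called under all 31 alternative settings, with adjusted p up to 0.0238.

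The rise against the isocaloric diet was lost in 3 of 31 alternatives: without isocaloric naive replicate 2 (0.35, adjusted p = 0.0688), without the 4 arrays high in Ttr (0.32, 0.0664) and with the Gapdh 3′ to 5′ signal ratio, a measure of RNA integrity, as a covariate (0.28, 0.0907). That log2 ratio averaged 0.26 ± 0.12 (SD, n = 8) in the alcohol diet, 0.13 ± 0.04 (n = 6) in the isocaloric diet and 0.26 ± 0.07 (n = 4) in the control diet. Among the alcohol arrays it was lowest, at 0.09, on naive replicate 4, where Pcsk1n was lowest, and highest, at 0.48, on trained replicate 4, where Pcsk1n was highest. The latter array was also high in Ttr. On replicates 1, 2 and 3 the ratio was 0.32, 0.24 and 0.22 (trained) and 0.22, 0.35 and 0.15 (naive). On the same arrays, in the same order, Pcsk1n read 1828, 1995 and 1856 (trained) and 1792, 1918 and 1811 (naive). Since the ratio differs between the alcohol and isocaloric diets, their parts in the Pcsk1n difference cannot be told apart by that fit.

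Pdyn, the precursor of dynorphins, had signals of 85.2, 69.1, 87.6 and 115.0 on alcohol trained arrays and 81.6, 71.1, 106.9 and 81.9 on alcohol naive arrays. Isocaloric trained arrays read 97.6, 69.3, 76.4 and 72.6, and isocaloric naive arrays 86.1 and 82.1. Control trained arrays read 46.8 and 54.4, and control naive arrays 65.7 and 50.9. All 4 control arrays lay below all 14 others, and the closest pair, 65.7 and 69.1, was control naive replicate 1 and alcohol trained replicate 2. The alcohol and isocaloric arrays overlapped, with alcohol trained replicate 4 and alcohol naive replicate 3 above every isocaloric array. By diet the means were 87.3 ± 16.1 (SD, n = 8) with alcohol, 80.7 ± 10.3 (n = 6) isocaloric and 54.4 ± 8.11 (n = 4) control. The control signals were dim. The mean over all arrays lay at the 50.8 percentile, beside a filter at the 40th, and it included the brighter alcohol and isocaloric arrays.

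Alcohol minus control was 0.62 for Pdyn (SE 0.13, 1.53-fold, limma adjusted p = 0.00428), and 8 of 8 alcohol arrays were above the control mean of their training state. This call was kept in all 30 alternatives in which Pdyn was tested, with adjusted p up to 0.0425, and the difference was 0.75 without the MAS5-labelled arrays. Without those arrays a lone array stood for each control group, at 46.8 (trained) and 50.9 (naive). The labelled arrays read 54.4 and 65.7. Isocaloric minus control was 0.54 (SE 0.14, 1.45-fold, adjusted p = 0.031), with 6 of 6 arrays higher. That call was lost in 12 of 30 alternatives while the difference stayed between 0.39 and 0.67. Leaving out single arrays ended it for isocaloric naive replicate 1 (adjusted p = 0.089) or 2 (0.102), control naive replicate 2 (0.195) and control trained replicate 1 (0.117) or 2 (0.0632). Quantile normalization (0.0739), median centring (0.0542), no filter (0.0574), a fit of these groups alone (0.0545), array weights (0.0589), the replicate number as a block (0.0563) and omission of the arrays high in Ttr (0.119) also ended it. Alcohol minus isocaloric was 0.08, with a 95% interval of -0.17 to 0.33.

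Other transcripts separated the control arrays as Pdyn did. Of 8 tested markers of endothelial and mural cells, the cells of blood vessels, 6 were higher with alcohol than control and 7 higher with the isocaloric diet than control, and 0 were lower, beside 19.9% and 7.05% of all probe sets called. Cldn5, a tight junction protein of brain endothelium, was higher by 1.39 and 1.29 (limma adjusted p = 9.9e-09 and 7.36e-08), Esam, an endothelial adhesion molecule, by 1.07 and 0.91, Flt1, a receptor for vascular endothelial growth factor, by 0.79 and 0.88, and Rgs5, of pericytes, by 0.60 and 0.65. These calls were kept in all alternatives run. Of the isocaloric calls, those of Slc2a1 (lost in 23 of 31 alternatives), Slco1c1 (9 of 31) and Acta2 (5 of 30) were less stable. The filter used the mean over all 18 arrays, most of them alcohol or isocaloric, so a gene dim on control arrays alone could pass. Control signals averaged 45.7 for Esam, 30.8 for Flt1 and 38.5 for Rgs5, beside 111 for Cldn5, 178 for Slco1c1 and 269 for Slc2a1. The list's summed signal over 13 markers on the array was 1121 to 1453 on control arrays, 1712 to 1919 on alcohol arrays and 1735 to 1888 on isocaloric arrays, so the control arrays again lay apart. Of 6 tested dentate granule cell markers, the cells that make most hippocampal dynorphin, 0 were called in any diet comparison, and 1, 1 and 3 had an unadjusted limma p under 0.05 in the order alcohol minus isocaloric, alcohol minus control and isocaloric minus control, beside 21.7%, 33.6% and 25.1% of all probe sets. Their summed signal over 9 markers was 1466 to 1686 on control arrays, 1271 to 1525 on alcohol arrays and 1290 to 1491 on isocaloric arrays. The part of vascular RNA in the Pdyn difference was not tested.

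Penk, the precursor of enkephalins, varied most between replicates of the alcohol trained group, at 204, 331, 319 and 188. Alcohol naive arrays read 225, 281, 299 and 313. In the isocaloric diet, trained arrays read 255, 256, 326 and 275, and naive arrays 231 and 278. Control arrays sat inside this range, at 259 and 252 trained and 263 and 268 naive. The alcohol trained arrays split into a low pair, below all other arrays, and a high pair, and their CV was 28.7%, beside 1.43% to 13.7% in the other 5 groups. Diet differences were between -0.00 and 0.02 on the log2 scale, and none passed the limma test (adjusted p from 0.925 to 0.998). The 95% interval of alcohol minus isocaloric ran from -0.26 to 0.25.

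**Figure D2:**
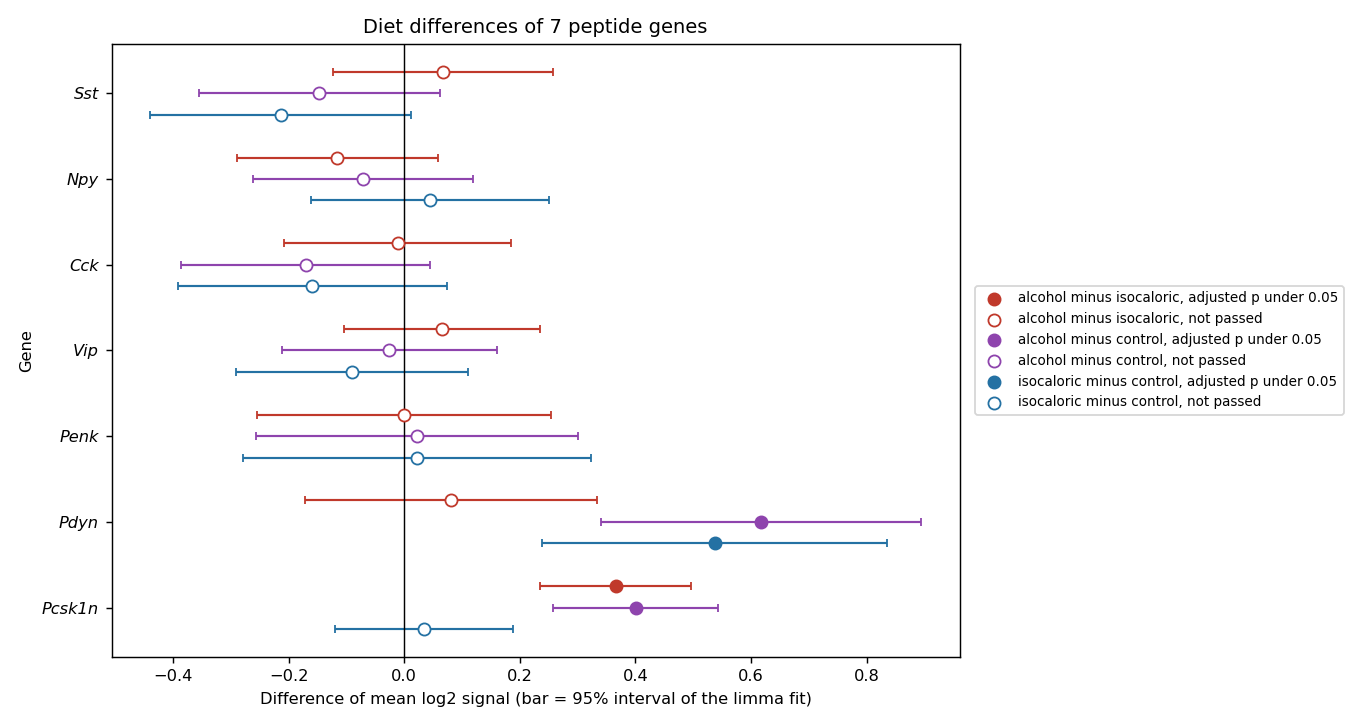
Differences of mean log2 signal between diets, averaged over training, for the 7 genes that passed the filter (x axis, log2 units; bars are 95% intervals of the limma fit). Filled points passed an adjusted p of 0.05: Pcsk1n at 0.37 and 0.40, and Pdyn at 0.62 and 0.54. Every other interval includes 0.

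Among the interneuron peptides, Sst, which encodes somatostatin, the marker of dendrite-targeting interneurons, read 346, 488, 372 and 458 on alcohol trained arrays and 380, 411, 455 and 505 on alcohol naive arrays. With the isocaloric diet, Sst read 326, 342, 348 and 440 on trained and 452 and 451 on naive arrays. Control trained arrays read 417 and 476, and control naive arrays 472 and 520. The isocaloric trained group was lowest and the control naive group highest, with overlap between the diets. Isocaloric minus control was -0.21 (SE 0.11, limma adjusted p = 0.226), with 6 of 6 isocaloric arrays below the control mean of their training state. Median centring, which lowered the median of all probe sets in that comparison from 0.02 to -0.09, gave Sst -0.32 with an adjusted p of 0.0465, and no other alternative called it. Alcohol minus control was -0.15 (adjusted p = 0.318) and alcohol minus isocaloric 0.07 (0.71).

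Npy, which encodes neuropeptide Y, a peptide that dampens glutamate release, read 289, 347, 268 and 309 on alcohol trained arrays and 301, 276, 326 and 405 on alcohol naive arrays. In isocaloric trained arrays it was 358, 308, 284 and 315, in isocaloric naive arrays 362 and 369, in control trained arrays 368 and 345, and in control naive arrays 310 and 297. Alcohol naive replicate 4 was the highest of the 18 and alcohol trained replicate 3 the lowest, so the alcohol diet spanned the whole range. The diet differences were -0.12 for alcohol minus isocaloric (SE 0.08, limma adjusted p = 0.44), -0.07 for alcohol minus control and 0.04 for isocaloric minus control.

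Cck, the cholecystokinin precursor, found in basket cells and also in some pyramidal neurons, read 1206, 1314, 1029 and 1354 on alcohol trained arrays and 1299, 1521, 1294 and 1274 on alcohol naive arrays. Isocaloric trained arrays read 1339, 1507, 988 and 1166, isocaloric naive arrays 1329 and 1366, control trained arrays 1317 and 1485, and control naive arrays 1298 and 1698. The lowest array was isocaloric trained replicate 3 and the highest control naive replicate 2. Alcohol minus control was -0.17 for Cck (SE 0.10) and isocaloric minus control -0.16 (SE 0.11), and neither passed the limma test (adjusted p = 0.257 and 0.394).

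Vip, which marks interneurons that inhibit other interneurons, was the steadiest of the 8 genes, with signals from 88.1 to 123.8 and a CV of 8.27% over all arrays. Alcohol trained arrays read 97.6, 114.9, 102.1 and 112.6, and alcohol naive arrays 104.6, 104.6, 110.9 and 105.1. Isocaloric trained arrays read 103.5, 113.3, 88.1 and 97.0, isocaloric naive arrays 92.4 and 114.5, control trained arrays 123.8 and 101.7, and control naive arrays 105.8 and 103.7. All 6 groups overlapped. Diet differences lay between -0.09 and 0.06, with limma adjusted p from 0.598 to 0.868, and the 95% interval of alcohol minus isocaloric was -0.10 to 0.23.

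Tac1, the precursor of substance P, was near the lower limit of the arrays, with its mean at the 25.1 percentile. Alcohol trained arrays read 3.64, 46.3, 11.7 and 30.9, and alcohol naive arrays 34.0, 40.5, 26.5 and 34.5. Isocaloric trained arrays read 30.6, 29.8, 41.3 and 34.9, isocaloric naive arrays 40.8 and 37.1, control trained arrays 4.67 and 38.7, and control naive arrays 8.41 and 12.0. The 6 isocaloric arrays lay close together, while 3 of 4 control arrays and 2 of 8 alcohol arrays were under 13. In a fit with no filter isocaloric minus control was 1.17 (SE 0.41, limma adjusted p = 0.127) and alcohol minus control 0.71 (SE 0.38, 0.259), so no diet difference passed.

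Markers of inhibitory interneurons gave context to these peptides. Of 12 tested, 2 were higher and 1 lower with alcohol than control, 2 were higher with the isocaloric diet than control, and none was called for alcohol minus isocaloric, where 5 had an unadjusted limma p under 0.05, beside 21.7% of all probe sets. The shares of all probe sets called were 19.9%, 7.05% and 3.06% in these comparisons. Against control, 8 of 12 (alcohol) and 7 of 12 (isocaloric) had an unadjusted limma p under 0.05, beside 33.6% and 25.1% of all probe sets. Gad2, which makes GABA, was higher by 0.47 with alcohol and 0.50 with the isocaloric diet (adjusted p = 0.0111 and 0.0271). Kit, a receptor tyrosine kinase, was higher by 0.47 and 0.48 (0.00956 and 0.0284). For isocaloric minus control these calls were lost in 9 (Gad2) and 11 (Kit) of 31 alternatives, and in 3 each for alcohol minus control. Cnr1, the cannabinoid receptor of cholecystokinin basket cells, fell by 0.22 with alcohol against control, but a second Cnr1 probe set rose by 0.39, so its direction is unsettled. The list's median difference was -0.02, 0.08 and 0.17 in the order used above, beside -0.02, -0.00 and 0.02 for all probe sets. Gad1, the other GABA-synthesising enzyme, differed by 0.13 and 0.14 against control and did not pass (adjusted p = 0.125 and 0.168).

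Training was compared as trained minus naive, with the 3 diets weighted equally. None of the 7 genes was called by limma, where 0.0105% of all probe sets were called, and 1 of 7 had an unadjusted p under 0.05, beside 566 of 9520 probe sets. That gene was Sst, at -0.18 (SE 0.08, unadjusted p = 0.0382, adjusted p = 0.81), with 8 of 10 trained arrays below the naive mean of their diet. Trained Sst signals had a median of 395 and a range of 326 to 488, and naive signals a median of 454 and a range of 380 to 520, so the states overlapped. Over 30 alternatives the Sst difference lay between -0.24 and -0.15, and no alternative called it. Differences of the other 6 genes lay between -0.12 (Cck) and 0.07 (Pcsk1n).

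Within a diet, no gene of the 7 was called by limma either. In the alcohol diet 0% of all probe sets were called and 0 of the 7 genes had an unadjusted p under 0.05, beside 818 probe sets. In the isocaloric diet 0% were called and 1 of 7 had an unadjusted p under 0.05, beside 678 probe sets. In the control diet, with 2 arrays against 2, 0.0315% were called and 0 of 7 had an unadjusted p under 0.05, beside 1036 probe sets. The isocaloric gene was Sst, at -0.32 (SE 0.14, adjusted p = 0.679), where all 4 trained arrays lay below both naive arrays. Sst was -0.08 in the alcohol diet and -0.15 in the control diet, with 95% intervals of -0.32 to 0.16 and -0.49 to 0.19. Pcsk1n differed by 0.14 in the alcohol diet (SE 0.08, adjusted p = 0.637). The training effect itself was compared between the alcohol and isocaloric diets, where 0% of probe sets and none of the 7 genes were called by limma, and 0 of 7 had an unadjusted p under 0.05, beside 401 probe sets. Its largest difference among the 7 was -0.26 for Penk, with a 95% interval of -0.77 to 0.25.

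**Figure D3:**
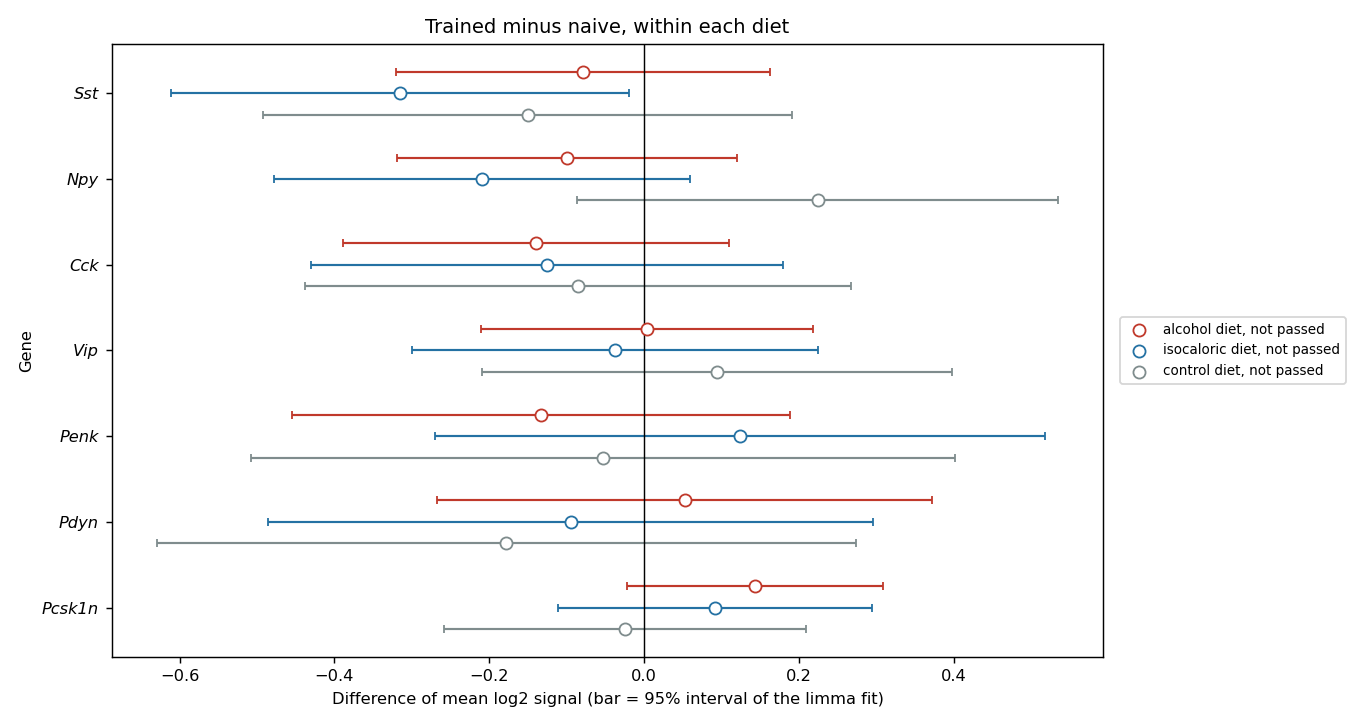
Trained minus naive difference of mean log2 signal within each diet for the 7 genes (x axis, log2 units; bars are 95% intervals of the limma fit). All points are open because none passed an adjusted p of 0.05. The interval of Sst in the isocaloric diet, centred on -0.32, is the only one without 0.

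Activity-driven genes, several of them reading the same cAMP response element, were followed for comparison with the peptides. Of 16 tested, 0 were called by limma for training and 0 had an unadjusted p under 0.05. For alcohol minus isocaloric 2 were lower, Ptgs2, an inducible prostaglandin synthase (-0.60, adjusted p = 0.00427), and Nr4a1, a nuclear receptor (-0.33, 0.0448), and the Nr4a1 call was lost in 20 of 31 alternatives. For alcohol minus control Egr1, a transcription factor, was higher by 0.42 (0.02) and Ptgs2 was lower (-0.37, 0.0151), calls lost in 4 of 31 and 4 of 30 alternatives. Over all probe sets 3.06% and 19.9% were called in these comparisons. For isocaloric minus control 0 of the 16 were called, beside 7.05%. In the same order, 3, 4 and 6 of the 16 had an unadjusted limma p under 0.05, beside 21.7%, 33.6% and 25.1% of all probe sets.

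The machinery that cuts, loads and releases these peptides was described from a list of 23 genes, of which 22 had a probe set and 19 were tested. With alcohol against isocaloric 1 was higher and 0 lower, against control 2 were higher and 2 lower, and with isocaloric against control 1 was higher and 1 lower. Beside the 3.06%, 19.9% and 7.05% of all probe sets called, these few calls are no result about the list. The list's median difference was 0.02, 0.01 and -0.00, beside -0.02, -0.00 and 0.02 for all probe sets. Chga, which encodes chromogranin A, a core protein of dense-core vesicles, moved as Pcsk1n did in direction: 0.30 against isocaloric (SE 0.08, limma adjusted p = 0.0391) and 0.36 against control (SE 0.08, 0.00675). The first of these calls was lost in 14 of 31 alternatives and the second in 3. Syt7, a calcium sensor for slow release, was higher by 1.09 with alcohol than control (SE 0.17, 0.000479) and by 0.81 with the isocaloric diet (SE 0.18, 0.0141), and the second call was lost in 5 of 30 alternatives. Its signal was dim, averaging 28.3 on control arrays, 66.4 with alcohol and 51.8 isocaloric. The filter used the mean over all arrays, so Syt7 passed with the help of the groups where it was higher. Cpd, a carboxypeptidase, fell by 0.34 with alcohol and by 0.32 with the isocaloric diet against control (0.00809 and 0.0342), calls lost in 3 and 16 of 31 alternatives. Cadps, a vesicle priming factor, was -0.20 with alcohol against control (0.0454), a call lost in 21 of 31 alternatives.

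Several other genes that act on the precursors did not pass the limma test between diets. Pcsk2, the convertase 2 gene, differed by 0.05 for alcohol minus isocaloric and 0.05 for alcohol minus control (adjusted p = 0.803 and 0.783). Cpe, the carboxypeptidase that trims cut peptides, differed by 0.06 and -0.02, and Pam, the amidating enzyme, by 0.02 and 0.18 (adjusted p of Pam = 0.909 and 0.0999). Scg5, which encodes the convertase 2 chaperone 7B2, differed by 0.07 and -0.09, and by -0.16 for isocaloric minus control (adjusted p = 0.159). Pcsk1, the convertase that proSAAS inhibits, was not analysed here.

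**Figure D4:**
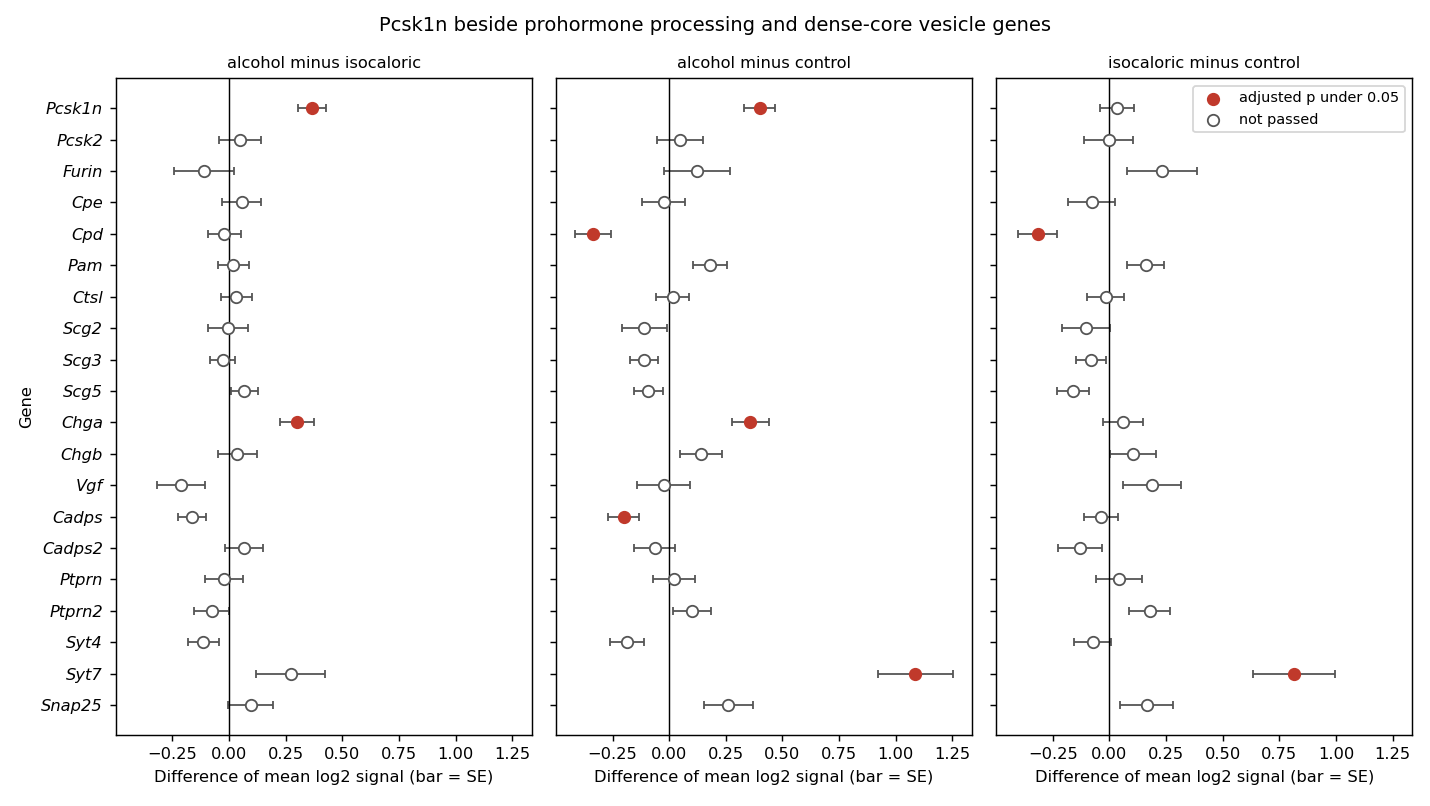
Pcsk1n and 19 prohormone processing and dense-core vesicle genes, as differences of mean log2 signal in 3 diet comparisons (x axis, log2 units; bars are SE). Filled points passed an adjusted p of 0.05. Chga lies beside Pcsk1n in both alcohol comparisons, at 0.30 and 0.36, while Pcsk2, Cpe and Scg5 lie within 0.1 of 0 in those comparisons.

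A list of receptors was mostly dim, and 8 of 18 on the array passed the filter. It also held Oprl1, the receptor for nociceptin, a relative of the opioid receptors whose ligand is not among the 7 peptides. None of the 8 was called by limma in any diet comparison, with 1, 0 and 1 at an unadjusted p under 0.05, beside 21.7%, 33.6% and 25.1% of all probe sets. The smallest p values belonged to Tacr1, the substance P receptor, at -0.23 for alcohol minus isocaloric (adjusted p = 0.16), and Oprl1 at 0.31 for isocaloric minus control (0.197), the 1 gene counted there. Other neuropeptide precursors gave 7 tested of 29 on the array and 0 calls, with 3, 2 and 1 at an unadjusted p under 0.05 against those same shares. Gal, the galanin precursor, was at -0.33 for alcohol minus isocaloric (adjusted p = 0.0907), and Nppa, the atrial natriuretic peptide precursor, at -0.52 for isocaloric minus control (0.0518). Markers of striatum and amygdala, tissues rich in Penk, Pdyn and Tac1 that lie near the hippocampus, gave 0 calls of 6 in each diet comparison, with 1, 0 and 0 at an unadjusted p under 0.05 against those shares. Their summed signal over 11 genes was 808 to 1031 with alcohol, 924 to 1033 isocaloric and 823 to 1061 control.

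Pan-neuronal and excitatory markers were counted beside Pcsk1n because neurons make proSAAS. Of 12 tested, 1 was higher with alcohol than isocaloric, Hpca (0.53, limma adjusted p = 0.0176), a calcium sensor of pyramidal cells, a call lost in 4 of 31 alternatives. Against control 3 were higher and 1 lower with alcohol: Hpca (0.56), Slc17a7, the vesicular glutamate transporter (0.39, lost in 3 of 31), and Syn1, a synaptic vesicle protein (0.45, lost in 6 of 31), were higher. Camk2a, a synaptic kinase, was the lower one at -1.82, but a second Camk2a probe set rose by 0.95. For isocaloric minus control Camk2a was the only call, at -1.62, where its second probe set rose by 0.96. The shares of all probe sets called were 3.06%, 19.9% and 7.05% in these comparisons. The list's median difference was 0.02, 0.03 and 0.04, beside -0.02, -0.00 and 0.02 for all probe sets. Summed signal over the 12 was 14705 to 18630 on alcohol arrays, 15162 to 16512 on isocaloric arrays and 13639 to 16561 on control arrays. The part of neuronal RNA in the Pcsk1n difference was not tested.

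The genes most like each peptide gene were taken as the 3 with the highest Pearson r of log2 signal over the 18 arrays, which share their diet groups and scaling. For Pcsk1n these were Ckb, brain creatine kinase (r = 0.928), Tle5, a transcriptional corepressor (0.906), and App, the amyloid precursor protein gene (0.902). A second App probe set had r = 0.256. For Pdyn they were Mpp3, a synaptic scaffold gene (0.888), Cert1, a ceramide transporter (0.885), and Msl1 (0.88), while other probe sets of Mpp3 gave 0.609 and 0.4 and those of Msl1 0.224 and 0.261. Since these genes were picked on the same arrays, their diet differences are not given.

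For the other 5 tested genes the likeness was lower. Npy was closest to Usp40 (0.866), Mphosph8 (0.796) and Pafah1b2 (0.779), and Cck to Ndufb8 (0.788), Egfl8 (0.786) and Spetex2l2 (0.738). Sst was closest to Pafah1b1 (0.774), a dynein regulator, Lmo4 (0.756) and Cfap90 (0.725). Penk was closest to Osgep (0.75), Stimate (0.711) and Dmac2 (0.702), and Vip to Acy1 (0.678), Pias4 (0.675) and Rmdn3 (0.663). A second probe set of Pafah1b2 had r = 0.0673 and one of Dmac2 r = -0.222, so these likenesses hold for single probe sets. No peptide gene was among the 3 nearest of another.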

How the data were processed

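The authors deposited a linear intensity for every probe set of 18 arrays. The submitters' processing notes name MAS 5 for 2 samples; that of the others was not given in the sources used here. Intensities were moved to log2(value + 6.06), with the 10th percentile over all arrays added. Of 15923 probe sets, 57 controls and those with a mean under the 40th percentile were left out, leaving 9520. limma 3.58.1 (R 4.3.3) was fitted to 6 group means with eBayes and a trend on mean level, two-sided, with Benjamini-Hochberg adjustment, and was tested on simulated data. Tables used Python 3.11.15, pandas 2.3.3 and numpy 2.4.6, and plots matplotlib 3.10.9. The number of arrays limits the precision. Members and lists were chosen with earlier results of these data known. Named were all members, the 3 genes most like each, and per list the members called (at most 4 per comparison) or otherwise the 2 with the smallest p, of which the text gives a selection for lists other than peptide processing. Genes such as Pcsk2, Cpe, Pam, Scg5, Gad1 and the tissue markers were named for their function, after their values were seen. Each list gene was read from its brightest probe set. The alternatives changed the constant, scaling, filter, arrays in the fit, weights, trend, replicate block, Gapdh covariate and left-out arrays.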

Additional observations from a re-analysis of the deposited data

Results flagged for a closer look

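In 24 groups of 4 arrays (8 genes in 3 groups) the highest or lowest array was compared with its neighbours, where chance sets apart about 1 in 20. Cck on alcohol naive replicate 2 read 1521, and its gap to the next array was 0.892 of the group's range, above the critical 0.829. That array is 1 of the 4 high in Ttr. Vip on alcohol naive replicate 3 read 110.9, with a gap of 0.92 of a narrow range.

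Training differences were also compared between diets after the data were seen. In a screen of 24 diet pairs, all arrays of 1 diet moved one way and all of another the opposite way for 3 genes. These pairs were picked for that pattern on the same arrays, so the p-values below are not independent tests of it. For Npy, all 4 isocaloric trained arrays lay below the naive mean and both control trained arrays above it. The training effect, control minus isocaloric, was 0.43 for Npy (SE 0.20, unadjusted p 0.0398 and adjusted p = 0.331 by limma). For Penk the difference was -0.18 (adjusted p = 0.838). Pcsk1n gave -0.12 for control minus isocaloric (0.788) and -0.17 for control minus alcohol (0.64), where its training difference in the control diet was only -0.02. None passed the adjusted threshold.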

How the results depend on the processing

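Of 1713 values recomputed for the 7 genes under 31 alternatives, 1687 kept their direction and side of the threshold, counting as kept 80 uncalled values that turned sign within 1 SE. The count of genes called for alcohol minus isocaloric (1) fell to 0 with the Gapdh ratio as a covariate and without the arrays high in Ttr, and was 0 to 1 when single arrays were left out. For alcohol minus control (2) it was 1 with the stricter filter, which dropped Pdyn, and 2 to 2 when single arrays were left out. For isocaloric minus control (1) it was 0 with quantile normalization, no filter, the stricter filter, only the groups compared, array weights, the replicate block and no arrays high in Ttr, 0 to 1 when single arrays were left out, and 1 with median centring, where Sst replaced Pdyn.

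Uncalled values that reversed were Penk with the Gapdh covariate (0.19 for alcohol minus isocaloric, -0.17 for isocaloric minus control, 0.042 for training in the alcohol diet), Npy and Pcsk1n for isocaloric minus control with median centring (-0.066 and -0.076), and, without the arrays high in Ttr, Vip for isocaloric minus control (0.0053) and Pdyn for training in the alcohol diet (-0.15). When single arrays were left out, training differences ran from -0.18 to 0.0062 for Npy (alcohol), -0.18 to 0.11 for Vip (isocaloric) and -0.28 to 0.11 for Cck (control). The cause was not tested.

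Over all probe sets the counts called ran from 15 to 1207 for alcohol minus isocaloric (291 as reported), 568 to 3024 for alcohol minus control (1895), 67 to 2362 for isocaloric minus control (671) and 0 to 123 for training (1). The highest counts of the control comparisons and of training came without control naive replicate 1, where a lone array stands for its group and is assumed to vary like the others. Deviations from the group means of same-numbered arrays in different groups had correlations of -0.23 to 0.13 (36 pairs, 4 over 0.1). Of 18 arrays, 3 were closest to their own number. In groups of 2 arrays the deviations mirror each other, so the pairs are not independent and cannot decide whether arrays were paired. With the replicate block Pdyn for isocaloric minus control was 0.49 (limma adjusted p = 0.0563), and no other call among the 7 genes changed. Dim signal limits Tac1 and, on the control arrays, Pdyn, and 2 arrays in 3 of the groups limit the control and isocaloric naive values.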
